A study of Mus musculus with 34 samples.

Results

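The genes described here are 9 that mark and shape forebrain interneurons: the transcription factor genes Lhx6, Sox6, Satb1, Dlx1, Dlx5, Maf, Mef2c and Nr2f1, and Dlx6os1, a noncoding RNA gene beside Dlx5. They were taken by symbol from every deposited table, and all 9 were listed in each of the 5 tables, where 11429 genes were listed in all 5. For Dlx6os1 the row of the long antisense RNA ENSMUSG00000090063 was used in the tables that give gene IDs, not the short ENSMUSG00000098326 of the same symbol. The study profiled ribosome-bound mRNA of parvalbumin (PV) and somatostatin (SST) interneurons of C57/BL6 mice at postnatal day 60, to look for genes that answer learning or network excitation and for effects of losing Nr4a1. In the RiboTag method, Cre switches the ribosomal protein Rpl22 to a form that carries an HA tag, and the tagged ribosomes were pulled down with anti-HA beads. Cre was driven by the Pvalb or the Sst gene, so the cells behind a library are those in which that driver was ever active.

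The 34 libraries form 11 groups in 5 batches, and every mouse carried the RiboTag allele with a Cre driver. In batch 1, PV:Cre/Ribotag mice received pentylenetetrazol, PTZ, a GABA receptor antagonist that excites networks widely (n = 4), or saline (n = 3). In batch 2, Sst:Cre/Ribotag mice received PTZ (n = 3) or saline (n = 4), and PV:Cre/Ribotag mice received saline (n = 2). In batch 3, PV:Cre/Ribotag mice underwent contextual fear conditioning, CFC, which pairs a context with foot shocks (n = 3), PV:Cre/Nr4a1-f/f/Ribotag mice, called cKO here, stayed in the home cage (n = 3), and PV:Cre/Ribotag mice stayed in the home cage, HC (n = 3). In batch 4, Sst:Cre/Ribotag mice underwent CFC (n = 3) or stayed in the home cage (n = 3). In batch 5, Sst:Cre/Nr4a1-f/f/Ribotag mice stayed in the home cage (n = 3). The floxed Nr4a1 allele is recombined by the same Cre that tags the ribosomes. The tissue label is cortex and hippocampus, while the extraction text speaks of cortices.

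PV and most SST interneurons arise in the medial ganglionic eminence of the embryo. Distal-less homeobox genes switch on the GABA programme in progenitors, Lhx6 then directs migration and fate, and Sox6, Satb1, Maf and Mef2c act as the cells settle and mature. Several of these factors stay on in adult interneurons, where they are used as markers of origin. Expression is given below in CPM, a gene's counts as a share of the library's total, scaled by the TMM method within a table, and a gene was called where the adjusted p of edgeR's quasi-likelihood test was under 0.05.

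The genes lie on 6 chromosomes (GRCm38, GENCODE M21). Lhx6, a LIM homeodomain factor needed for interneuron migration and fate, spans 36081953 to 36105408 on the minus strand of chromosome 2. Dlx1, a homeodomain factor of migrating and adult interneurons, spans 71528113 to 71533981 on the plus strand of chromosome 2. Dlx5, its relative in the progenitor zone, spans 6877805 to 6882085 on the minus strand of chromosome 6. Dlx6os1, also called Evf2, is a long noncoding RNA known in mice to act on the neighbouring Dlx5 and Dlx6 genes, and spans 6820189 to 6871592 on the minus strand of chromosome 6. Sox6, an SRY-box factor downstream of Lhx6, spans 115470872 to 116038796 on the minus strand of chromosome 7. Maf, a leucine zipper factor that promotes SST cells among cells of this origin, spans 115682942 to 115707794 on the minus strand of chromosome 8. Mef2c, a MADS-box factor linked to PV cell maturation, spans 83504034 to 83667080 on the plus strand of chromosome 13. Nr2f1, an orphan nuclear receptor also called COUP-TFI that patterns the eminences and cortex, spans 78188973 to 78199757 on the minus strand of chromosome 13. Satb1, a chromatin organiser needed for SST cell maturation, spans 51736187 to 51833290 on the minus strand of chromosome 17. Antisense genes overlap 6.21% of the exonic bases of Dlx1 (Dlx1as), 5.34% of Maf (Gm15655) and 2.42% of Nr2f1 (A830082K12Rik), and reads there cannot be assigned where counting ignored strand, which the sources used here do not give.

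Lhx6, Satb1 and Mef2c were called between SST saline and PV saline libraries below, and Dlx6os1 alone held a searched motif. The promoters of these genes are shown. Each is the 250 bases before the most upstream start in RefSeq's table (GRCm38.p6), read 5′ to 3′ on the gene's strand. They lie at chr2:36105409-36105658 on the minus strand (Lhx6), chr17:51833291-51833540 on the minus strand (Satb1), chr13:83503784-83504033 on the plus strand (Mef2c) and chr6:6869534-6869783 on the minus strand (Dlx6os1). Capitals mark TAATTA, a core bound by many homeodomain proteins.
Lhx6: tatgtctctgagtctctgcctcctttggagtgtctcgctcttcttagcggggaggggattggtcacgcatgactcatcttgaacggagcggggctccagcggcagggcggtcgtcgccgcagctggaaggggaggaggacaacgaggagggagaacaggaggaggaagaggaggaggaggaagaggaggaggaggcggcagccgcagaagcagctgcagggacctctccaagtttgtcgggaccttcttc
Satb1: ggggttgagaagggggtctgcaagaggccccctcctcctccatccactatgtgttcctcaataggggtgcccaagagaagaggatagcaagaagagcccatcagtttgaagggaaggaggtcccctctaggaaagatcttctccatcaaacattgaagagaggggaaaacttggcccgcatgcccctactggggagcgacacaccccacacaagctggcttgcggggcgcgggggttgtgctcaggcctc
Mef2c: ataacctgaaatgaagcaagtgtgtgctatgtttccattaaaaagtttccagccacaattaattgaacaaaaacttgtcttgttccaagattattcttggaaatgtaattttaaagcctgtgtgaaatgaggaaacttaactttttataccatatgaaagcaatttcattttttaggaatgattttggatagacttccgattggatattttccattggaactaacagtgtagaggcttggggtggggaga
Dlx6os1: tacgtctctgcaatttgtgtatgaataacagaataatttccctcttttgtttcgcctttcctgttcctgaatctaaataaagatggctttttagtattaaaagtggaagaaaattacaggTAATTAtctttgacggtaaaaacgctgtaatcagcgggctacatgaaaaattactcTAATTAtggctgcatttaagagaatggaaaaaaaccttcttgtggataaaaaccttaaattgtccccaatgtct

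Of the 9 genes, 7 were matched in the promoter table. Maf was not, nor was Dlx5, which was also called between SST saline and PV saline libraries. The search was for TAATTA and for CTA and TAG parted by any 4 bases, a core bound by MEF2 proteins, each on both strands. TAATTA was found in the window of Dlx6os1 alone, at 130 and 74 bases before its RefSeq start, and was present in 4.84% of the 32851 promoters of the table. RefSeq and GENCODE starts differ for some genes. The windows of Dlx6os1, Dlx1 and Nr2f1 lie inside the GENCODE spans given above, and that of Sox6 does so in part. The MEF2 core was found in none of the 7 windows and in 3.2% of all promoters. The GC content of the windows ran from 33.2% for Dlx6os1 and 33.6% for Mef2c to 58% for Satb1, 61.6% for Lhx6 and 72% for Nr2f1. A match here is a run of letters and shows no binding.

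Several libraries stand apart and touch the results. Total counts ran from 4933110 to 27282912, and the PV saline libraries of batch 2 were the shallowest, with 6161764 and 4933110 counts. In batch 2, Sst stood at 1746 to 3398 CPM in SST saline and 54.3 and 68.1 CPM in PV saline libraries, and Pvalb at 6.22 to 12.0 CPM in SST saline and 243 and 362 CPM in PV saline libraries. In the PV saline libraries of batch 1, Pvalb was at 15.9 to 22.1 CPM, below Sst at 38.0 to 62.3 CPM, although the 10 listed PV markers summed to 2222 to 2811 CPM and the 10 SST markers to 403 to 426 CPM. PV PTZ replicate 2 of batch 1 had the lowest sum of the 5 pan-GABA markers in its batch, at 2648 CPM. PV cKO replicates 1 and 2 held 1053 and 1346 CPM of Pvalb, and replicate 3 held 156 CPM.

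**Figure D1:**
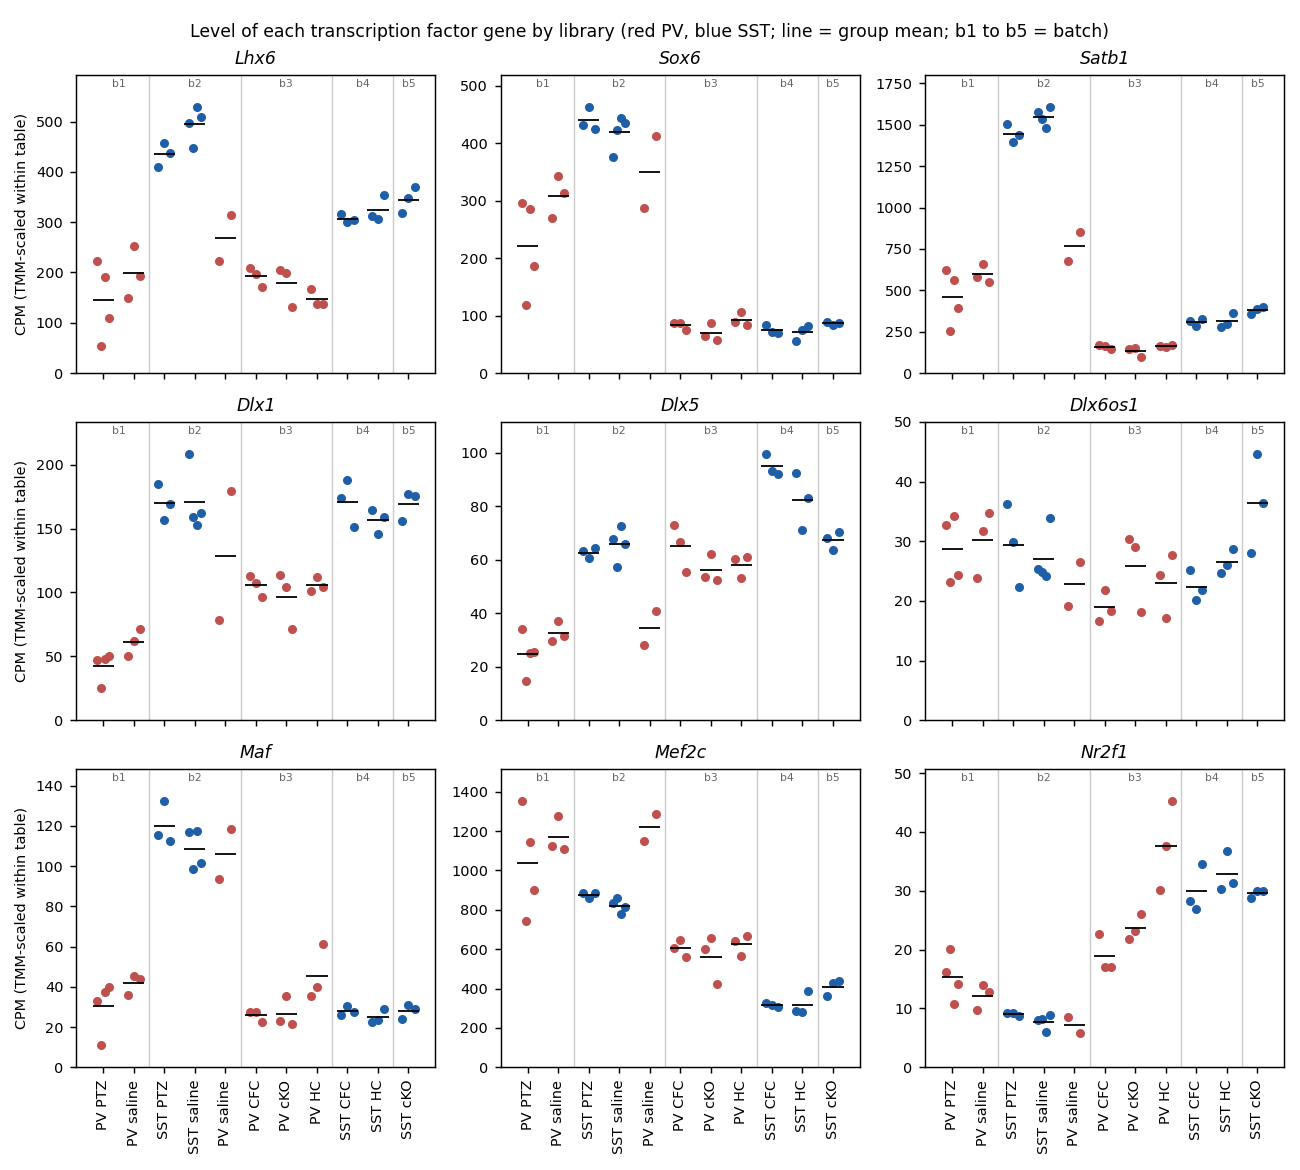
CPM of the 9 genes (y axis, scaled within a table) in each of the 34 libraries by group (x axis); points are libraries, red for PV and blue for SST, lines are group means, and grey lines divide batches b1 to b5. Lhx6, Satb1 and Dlx5 sit higher in SST saline than in PV saline libraries of batch 2, Mef2c sits lower, and the level of a gene differs widely between batches.

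The order of the genes, set per kilobase of exon, differed between SST and PV libraries. The length used is that of all annotated exons of a gene merged, not of the transcripts expressed, so the order depends on it. In plain CPM, Satb1 (1550) and Mef2c (822) stood above Lhx6 (496) in SST saline libraries. Per kilobase, Lhx6 was the most abundant of the 9 in all 5 SST groups. In SST saline libraries it averaged 103 CPM per kb, followed by Satb1 at 81.4, Mef2c at 52.3, Dlx1 at 31.6, Dlx5 at 29.1, Sox6 at 28.3, Maf at 13.2, Dlx6os1 at 5.24 and Nr2f1 at 1.53 CPM per kb. The top 3 did not overlap each other between libraries, while Dlx1 (28.3 to 38.7), Dlx5 (25.2 to 32.1) and Sox6 (25.4 to 29.9 CPM per kb) did. In PV saline libraries of batch 2, Mef2c came first at 77.6 CPM per kb, ahead of Lhx6 at 55.9, Satb1 at 40.3, Dlx1 at 23.9, Sox6 at 23.6, Dlx5 at 15.3, Maf at 12.9, Dlx6os1 at 4.42 and Nr2f1 at 1.41 CPM per kb. There Dlx1 (14.5 and 33.2) spanned the values of Sox6 (19.4 and 27.9 CPM per kb). Mef2c led the PV PTZ and PV saline groups of batch 1 and the PV HC group, at 66.0, 74.5 and 39.7 CPM per kb. Lhx6 led the PV CFC and PV cKO groups, at 40.1 and 37.1 CPM per kb, with Mef2c next at 38.4 and 35.7 CPM per kb.

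Levels also differed between the tables, which were scaled apart, so that no difference between batches was tested. Satb1 ranged from 254 to 1610 CPM in batches 1 and 2 and from 97.5 to 401 CPM in batches 3 to 5, and Sox6 from 119 to 464 CPM against 56.6 to 106 CPM. Nr2f1 lay the other way, at 5.77 to 20.0 CPM in batches 1 and 2 and 17.1 to 45.3 CPM in batches 3 to 5. Maf was at 93.8 to 133 CPM in batch 2, and at 11.03 to 61.3 CPM in the other batches.

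SST and PV interneurons can be compared within batch 2, and there Satb1, Dlx5 and Lhx6 were higher in SST saline libraries and Mef2c was lower. Fewer cells of a type and less RNA per cell cannot be told apart in such bulk libraries. By edgeR's quasi-likelihood test, 4 of the 9 genes passed, 3 higher and 1 lower, beside 53.1% of all 11784 genes tested (26% higher and 27.1% lower). Unadjusted, 4 of 9 were under 0.05 beside 58.7% of all genes, and the groups of 4 of 9 did not overlap beside 59.3%. The share among these factors is therefore no higher than that of all genes. All 9 passed the filter on low counts here and in every other comparison, and their median log2 fold change was 0.26 beside 0.01 over all genes tested.

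Satb1 was at 1574, 1533, 1481 and 1610 CPM in SST saline libraries and at 679 and 854 CPM in PV saline libraries. Every SST library lay above both PV libraries. The fold was 2.02 (log2 1.02 ± 0.11 SE, edgeR adjusted p = 2.1e-05). Lhx6 was at 497, 447, 530 and 509 CPM in SST saline and at 223 and 314 CPM in PV saline libraries. Again the groups did not overlap, and the fold was 1.85 (log2 0.89 ± 0.14 SE, edgeR adjusted p = 0.0003). Dlx5 was at 67.6, 57.1, 72.7 and 65.9 CPM in SST saline and at 28.3 and 40.8 CPM in PV saline libraries. It too was separated, at a fold of 1.92 (log2 0.94 ± 0.17 SE, edgeR adjusted p = 0.00073).

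Mef2c, the member tied to PV cell maturation, went the other way. It was at 834, 858, 781 and 815 CPM in SST saline and at 1151 and 1288 CPM in PV saline libraries. All SST libraries lay below both PV libraries, at a fold of 0.67 (log2 -0.57 ± 0.09 SE, edgeR adjusted p = 0.00037).

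The other 5 genes did not pass, and their libraries overlapped. Sox6 was at 377, 423, 443 and 435 CPM in SST saline and at 288 and 413 CPM in PV saline libraries (log2 0.26, 95% interval -0.05 to 0.57, edgeR adjusted p = 0.14). Dlx1 was at 209, 159, 152 and 162 CPM in SST saline and at 78.5 and 179 CPM in PV saline libraries (log2 0.41, interval -0.15 to 0.97, edgeR adjusted p = 0.195). For Dlx1, 1 PV library lay below the SST range and the other within it. Maf differed by log2 0.03 (interval -0.27 to 0.34), Nr2f1 by 0.10 (-0.48 to 0.68) and Dlx6os1 by 0.25 (-0.27 to 0.78), with edgeR adjusted p from 0.395 to 0.854.

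The 2 PV saline libraries decide part of this picture. Without PV saline replicate 2, Sox6 and Dlx1 passed as well, at log2 0.56 (edgeR adjusted p = 0.003) and 1.13 (0.00014), which makes 6 of 9. Without PV saline replicate 1, Sox6 was at log2 0.01 and Dlx1 at -0.08, and the same 4 genes passed. With every library of the batch thinned to the shallowest, a step chosen after the data were seen, 4 genes passed at log2 1.00 for Satb1, 0.89 for Dlx5, 0.87 for Lhx6 and -0.58 for Mef2c. Markers of other cells also differed: the 6 listed vascular genes summed to 13.1 to 28.2 CPM in SST saline and 0.214 and 7.11 CPM in PV saline libraries, where 5 of 6, Flt1 and Rgs5 among them, were at 0 in replicate 2. The 5 pan-GABA genes summed to 6639 to 6772 CPM in SST saline and to 5537 and 6221 CPM in PV saline libraries, with 1 of 5 called higher and 3 lower. The 7 listed markers of other interneurons summed to 447.5 to 554.9 CPM in SST saline and to 226 and 292 CPM in PV saline libraries, with 4 of 7 called higher and 2 lower. Of 11 excitatory neuron markers, 8 were lower in sign in SST saline libraries (median log2 -0.22), with 0 called higher and 2 lower. Among 8 microglial markers, 7 were higher in sign, with 2 called higher and 1 lower. For 10 astrocyte markers, 0 were called higher and 2 lower, and for 10 oligodendrocyte markers 1 higher and 1 lower. The part of these markers in the 4 calls was not tested.

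**Figure D2:**
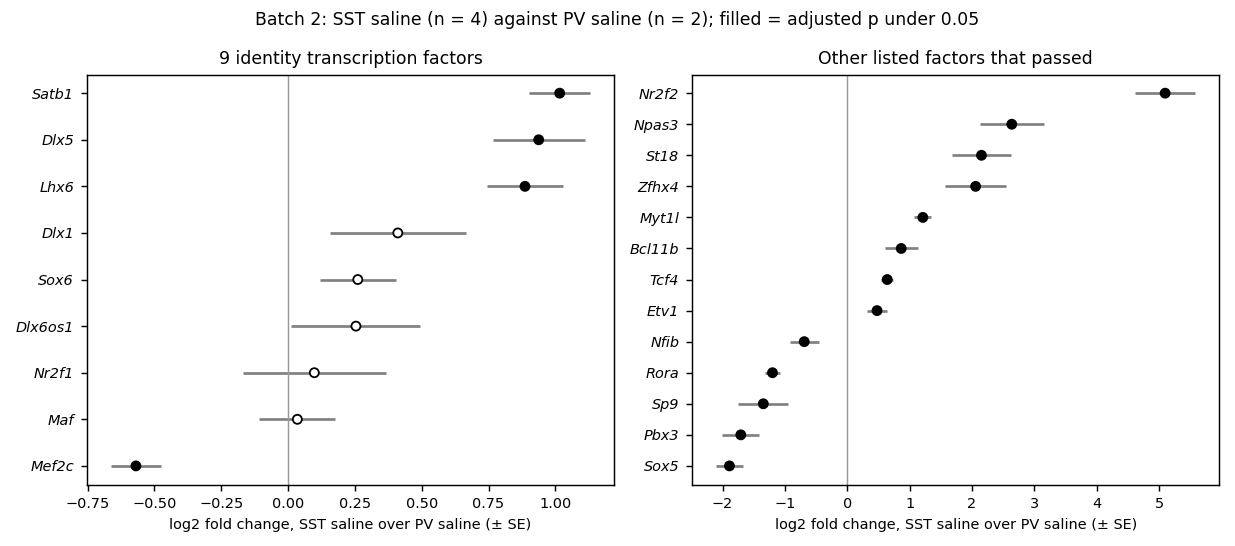
Log2 fold change (x axis) of SST saline (n = 4) over PV saline (n = 2) in batch 2, with bars of 1 SE, for the 9 genes (left) and for other listed interneuron factors that passed (right); filled points passed. Satb1, Dlx5 and Lhx6 sit to the right of 0 at 1.02, 0.94 and 0.89, and Mef2c to the left at -0.57.

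Other transcription factors of interneurons were compared in the same libraries, from a list of 29. Of these 25 were tested and 14 passed, 9 higher and 5 lower, beside the 53.1% of all genes, a share near that of the list, with a median log2 fold change of 0.35 beside 0.01 over all genes. The largest positive difference was that of Npas1, a basic helix-loop-helix PAS factor, which had 1181 counts over the SST saline libraries and 0 in both PV saline libraries. Against a floor of 3 counts over the PV group, it was at least 67.7-fold higher in SST saline libraries. Nr2f2, the COUP-TFII relative of Nr2f1, was higher by log2 5.10 ± 0.49 (SE, edgeR adjusted p = 6.3e-06), from 1570 counts over the SST and 8 over the PV saline libraries. Npas3 (2.64), St18 (2.15), Zfhx4 (2.06), Myt1l (1.21), Bcl11b (0.86), Tcf4 (0.64) and Etv1 (0.48) were also higher, and Sox5 (-1.89), Pbx3 (-1.71), Sp9 (-1.35), Rora (-1.20) and Nfib (-0.69) were lower on the log2 scale. Sox5, a relative of Sox6, thus passed as lower where Sox6 did not pass, and the difference between the pair was not tested. St18 and Zfhx4 rested on 16 and 37 counts over the PV saline libraries. In PV saline libraries of batch 1, scaled apart, St18, Zfhx4 and Etv1 averaged 13.8, 42.0 and 120.5 CPM. These lay above their means of 6.13, 13.8 and 117.7 CPM in SST saline libraries. By mean, the other factors that passed kept their side against batch 1, without a test. Nr2f2 did so narrowly, at means of 19.4 CPM in PV saline libraries of batch 1 and 24.0 CPM in SST saline libraries. Its ranges there overlapped, at 13.6 to 26.5 CPM and 20.8 to 28.4 CPM.

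The balance of Mef2c to Lhx6 within a library needs no scaling between libraries, and it was read across all 5 batches, of which batch 2 alone holds both cell types. Among the 36 pairs of the 9 genes, 3 count ratios placed all 16 SST libraries on one side of all 18 PV libraries across the 5 batches, and 17 did so within batch 2. These ratios were picked after their values were seen and are given without a test. The shares among all pairs of genes were not counted, so neither count is shown to be particular to these factors. Of single genes, 59.3% already had no overlap between SST saline and PV saline libraries of batch 2. Mef2c counts were 0.921 to 2.16 times Lhx6 counts in SST libraries (median 1.21) and 2.88 to 13.7 times in PV libraries (median 4.48). Mef2c over Satb1 was 0.506 to 1.11 in SST and 1.51 to 4.35 in PV libraries. Sox6 over Satb1 was 0.204 to 0.333 in SST and 0.423 to 0.67 in PV libraries. SST saline and PTZ libraries of batch 2 lay highest among SST libraries for Mef2c over Lhx6, at 1.47 to 2.16. The highest PV value, 13.7, was that of PV PTZ replicate 2, which also had the lowest Lhx6 level of its batch.

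**Figure D3:**
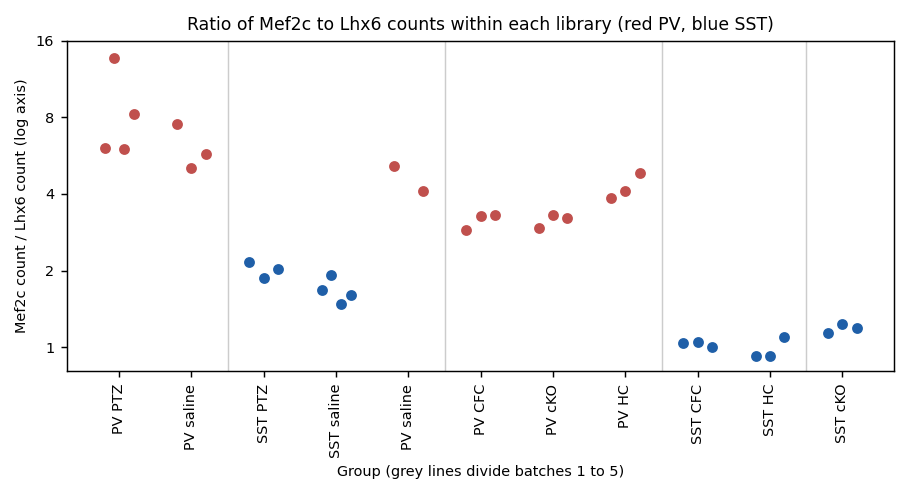
Ratio of Mef2c counts to Lhx6 counts (y axis, log scale) in each library by group (x axis), red for PV and blue for SST. All 16 SST libraries lie at or below 2.16 and all 18 PV libraries at or above 2.88.

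Home cage groups of SST and PV cells stand in different batches, so their levels are given side by side with no test. Lhx6 was at 311, 306 and 353 CPM in SST HC libraries of batch 4 and at 167, 138 and 137 CPM in PV HC libraries of batch 3. Satb1 was at 278, 296 and 366 CPM in SST HC and at 163, 159 and 171 CPM in PV HC libraries. Dlx5 was at 92.3, 71.2 and 83.2 CPM in SST HC and at 60.2, 53.1 and 60.9 CPM in PV HC libraries. Mef2c was at 287, 282 and 386 CPM in SST HC and at 641, 566 and 665 CPM in PV HC libraries. The sides of these 4 genes, picked as those called in batch 2, were those seen there, while cell type and batch cannot be told apart here. Dlx1 also lay higher in SST HC without overlap (146 to 164 against 101 to 112 CPM). Sox6 (56.6 to 82.3 against 84.0 to 106 CPM) and Maf (22.7 to 29.0 against 35.4 to 61.3 CPM) lay lower without overlap. Their differences in batch 2 were positive and not called. Nr2f1 and Dlx6os1 overlapped, and the share of all genes without overlap was not counted. Pvalb did not separate the lines in these batches, at 87.3 to 478 CPM in SST HC and 155 to 190 CPM in PV HC libraries, whereas Sst was at 5512 to 5882 CPM in SST HC and 126 to 464 CPM in PV HC libraries.

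PTZ, given to drive broad excitation, left no member called in PV cells. By edgeR, 0 of 9 genes passed beside 0.0294% of 13598 genes (4 genes, all higher), 0 of 9 had an unadjusted p under 0.05 beside 13.8% of genes, and DESeq2 called 0 of 9. In sign, 8 of the 9 were lower after PTZ, with a median log2 fold change of -0.40 beside -0.01 over all genes. Lhx6 was at 224, 54.2, 191 and 109 CPM in PV PTZ libraries and at 150, 253 and 193 CPM in PV saline libraries (log2 -0.46, 95% interval -1.35 to 0.44, edgeR adjusted p = 0.589). Dlx1 was at 47.2, 25.3, 47.6 and 50.2 CPM in PTZ and at 50.5, 62.2 and 71.8 CPM in saline libraries. It was the single member whose groups did not overlap, by a margin of less than 1 CPM, beside 13.8% of all genes (log2 -0.53 ± 0.25 SE, edgeR adjusted p = 0.372). Nr2f1 was the member with a positive difference, at 16.2, 20.0, 10.7 and 14.2 CPM in PTZ and 9.69, 14.0 and 12.8 CPM in saline libraries (log2 0.33, interval -0.25 to 0.91). For scale, the activity-induced gene Nr4a1 stood at 90.6 to 121 CPM in PTZ and 4.64 to 37.3 CPM in saline libraries. It did not pass either (log2 2.69, edgeR adjusted p = 0.239).

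PV PTZ replicate 2 held the lowest value of its table for 8 of the 9 genes, Nr2f1 being the exception with the highest. Relative to the mean of the table, Maf stood at log2 -1.68, Lhx6 at -1.63, Sox6 at -1.12, Satb1 at -1.03 and Dlx5 at -0.94 in that library, and Nr2f1 at 0.52. Without it the differences shrank to log2 -0.18 for Lhx6, -0.19 for Maf, -0.27 for Sox6 and -0.34 for Dlx1, that of Dlx6os1 went to 0.02, and no member was called. Cell markers moved with the treatment as well. The 10 PV markers summed to 659 to 1869 CPM in PTZ and 2222 to 2811 CPM in saline libraries and 9 of 10 were lower in sign. Pvalb was the exception, at 78.9, 40.3, 72.7 and 128 CPM in PTZ and 15.9, 21.9 and 22.1 CPM in saline libraries. All 10 microglial markers were higher in sign (median log2 1.83), with sums of 63.8 to 520 CPM in PTZ and 48.4 to 145 CPM in saline libraries. All 5 pan-GABA markers were lower in sign (median log2 -0.43). Higher in sign were 11 of 12 excitatory neuron (0.60), 9 of 10 astrocyte (0.30), 10 of 10 oligodendrocyte (0.64) and 10 of 10 vascular markers (0.90). The SST and other interneuron lists were mixed, with 5 of 9 and 5 of 7 higher. None of these markers was called, and their part in the differences was not tested.

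**Figure D4:**
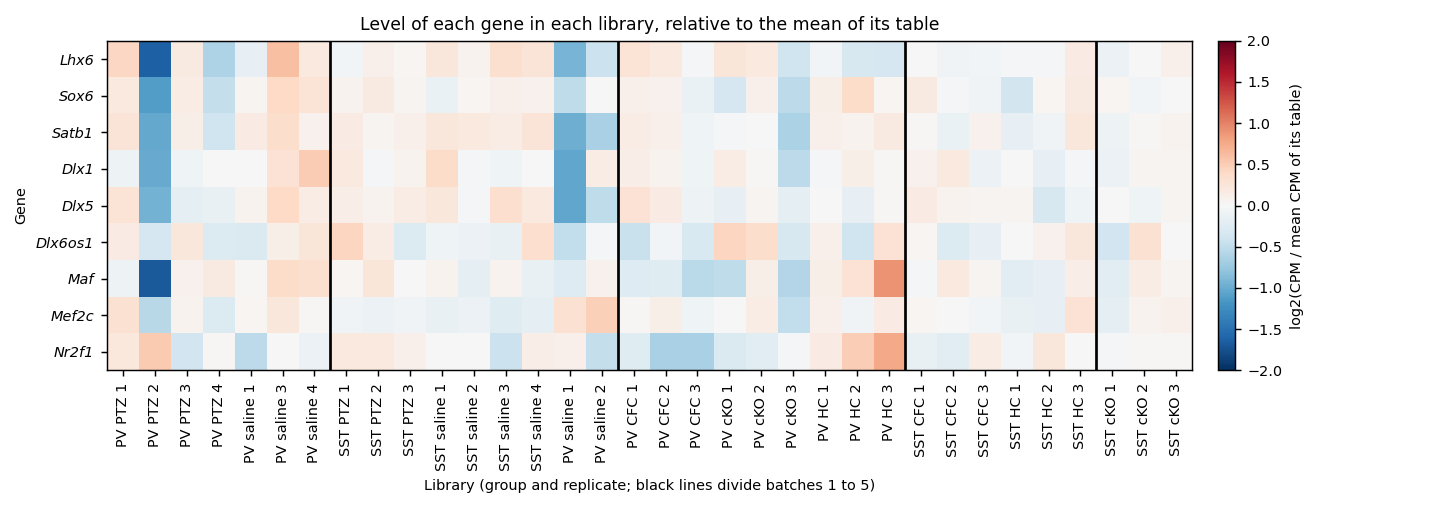
Level of each gene (rows) in each of the 34 libraries (columns), as log2 of its CPM over the mean of its own table; red is above and blue below that mean, and black lines divide batches. PV PTZ replicate 2 is the darkest blue column, at -1.68 for Maf and -1.63 for Lhx6.

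In SST cells PTZ left no member called either. By edgeR, 0 of 9 passed beside 0.144% of 11784 genes, 0 of 9 had an unadjusted p under 0.05 beside 4.34%, and DESeq2 called 0 of 9. Folds ran from 0.877 for Lhx6 to 1.16 for Nr2f1. Lhx6 was at 409, 457 and 438 CPM in SST PTZ and at 497, 447, 530 and 509 CPM in SST saline libraries (log2 -0.19, 95% interval -0.45 to 0.07, edgeR adjusted p = 0.99). Mef2c was at 884, 858 and 888 CPM in PTZ and at 834, 858, 781 and 815 CPM in saline libraries, so its groups were parted by a margin under 1 CPM (fold 1.07, interval of log2 -0.09 to 0.28), beside 10.4% of all genes that did not overlap. Satb1 differed by log2 -0.10 (interval -0.31 to 0.11). For scale, the activity-induced gene Nr4a1 stood at 88.6 to 118 CPM in PTZ and 14.7 to 44.3 CPM in saline libraries (log2 1.76, edgeR adjusted p = 0.143).

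The response to PTZ was not shown to differ between SST and PV cells for any of these genes. As a difference of SST minus PV responses over 11743 genes, edgeR called 0 of 9 beside 0% of all genes, 0 of 9 had an unadjusted p under 0.05 beside 5.13%, and DESeq2 called 0 of 9. The differences ran from log2 -0.16 for Nr2f1 to 0.58 for Maf (± 0.39 SE, edgeR adjusted p = 0.824).

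In the comparison of PV libraries after contextual fear conditioning with those of the home cage, no member was called, and Nr2f1 and Maf had the lowest p of the 9. Nr2f1 was at 22.7, 17.1 and 17.1 CPM in PV CFC libraries and at 30.1, 37.6 and 45.3 CPM in PV HC libraries. Every CFC library lay below every HC library, at a fold of 0.505 (log2 -0.99, 95% interval -1.42 to -0.55). Its unadjusted p of 0.00033 ranked 9 among 15150 genes, and its edgeR adjusted p was 0.186. Maf was at 27.4, 27.5 and 22.6 CPM in CFC and at 35.4, 40.1 and 61.3 CPM in HC libraries, also without overlap (fold 0.569, log2 -0.81, interval -1.34 to -0.29, edgeR adjusted p = 0.186). Lhx6 lay the other way, at 210, 198 and 171 CPM in CFC and at 167, 138 and 137 CPM in HC libraries (fold 1.31, log2 0.39, interval 0.01 to 0.76, edgeR adjusted p = 0.255).

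By edgeR, 0 of 9 genes passed in this comparison, beside 0% of 15150. For scale, Nr4a1 stood at 56.1 to 64.3 CPM in CFC and 5.07 to 11.7 CPM in HC libraries. It did not pass either (log2 2.90, edgeR adjusted p = 0.0594). Unadjusted, 3 of 9 were under 0.05 beside 18.7% of all genes (2834), and the groups of 3 of 9 did not overlap beside 25% of all genes. DESeq2 called 2 of 9, Nr2f1 (log2 -1.01, adjusted p = 0.0031) and Maf (-0.84, adjusted p = 0.0286), among 745 genes. edgeR with no filter on low counts called the same pair among 1032 genes. Without PV HC replicate 1 edgeR called both as well (log2 -1.12 and -0.96, adjusted p = 0.0191 and 0.0362), among 1481 genes, whereas leaving out PV HC replicate 3 gave -0.84 and -0.55 (both 0.453). Sox6, Satb1, Dlx1, Dlx5, Dlx6os1 and Mef2c had log2 differences between -0.28 and 0.16, with edgeR adjusted p from 0.549 to 0.999.

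PV HC replicate 3 held the highest Nr2f1 and Maf of the batch and was its shallowest library, with 10096035 counts. It also had the highest Sst of the 3 HC libraries, 464 CPM, and the lowest pan-GABA sum, 4134 CPM. Across the groups, the 10 SST markers summed to 795 to 930 CPM in PV CFC and 1011 to 1493 CPM in PV HC libraries, and the 8 markers of other interneurons to 257 to 281 CPM in CFC and 316 to 463 CPM in HC libraries. Chodl, which defines a class of SST cells, was at 0 in the 3 CFC libraries and in 1 of the 3 HC libraries. The pan-GABA genes summed to 6632 to 7615 CPM in CFC and 4134 to 6428 CPM in HC libraries. The part of these markers in the levels of Nr2f1 and Maf was not tested.

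PV libraries of Nr4a1 cKO mice were set against the same 3 PV HC libraries, so that the cKO and CFC comparisons share their controls. Nr4a1 itself was at 6.68, 16.5 and 7.65 CPM in cKO and 5.07, 7.43 and 11.7 CPM in HC libraries, and counts over a whole gene do not show whether a floxed part was removed. Nr2f1 was at 21.8, 23.1 and 26.0 CPM in PV cKO and at 30.1, 37.6 and 45.3 CPM in PV HC libraries, without overlap (fold 0.629, log2 -0.67, 95% interval -1.10 to -0.24, edgeR adjusted p = 0.157). Maf was at 23.0, 35.4 and 21.8 CPM in cKO and 35.4, 40.1 and 61.3 CPM in HC libraries, so that the groups met at 35.4 CPM (fold 0.588, log2 -0.77, interval -1.29 to -0.24, edgeR adjusted p = 0.172). Satb1 was at 148, 152 and 97.5 CPM in cKO and 163, 159 and 171 CPM in HC libraries, without overlap (fold 0.807, edgeR adjusted p = 0.337). Sox6 was at 65.1, 88.0 and 57.0 CPM in cKO and 89.3, 106 and 84.0 CPM in HC libraries (fold 0.751, edgeR adjusted p = 0.243).

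By edgeR, 0 of 9 genes passed between PV cKO and PV HC libraries, beside 0.139% of 15150 genes. Unadjusted, 3 of 9 were under 0.05 beside 17.8%, and 2 of 9 did not overlap beside 18.4% of all genes. DESeq2 called Nr2f1 (log2 -0.69, adjusted p = 0.0352) and Maf (-0.79, adjusted p = 0.0442) among 669 genes, and edgeR without the filter called Maf (-0.73, adjusted p = 0.0227) among 1072. Without PV HC replicate 1, edgeR called both (log2 -0.80 and -0.92, adjusted p = 0.0343 and 0.0464) among 1224 genes, and without PV HC replicate 3 they stood at -0.52 and -0.50 (0.356 and 0.411). PV cKO replicate 3 was the lowest of the group for all of Lhx6, Sox6, Satb1, Dlx1, Dlx5, Dlx6os1, Maf and Mef2c, and the highest for Nr2f1. It also had the highest sums of oligodendrocyte (891 CPM) and vascular markers (264 CPM) of its batch. Across the groups, the 10 oligodendrocyte markers summed to 377 to 891 CPM in PV cKO and 202 to 367 CPM in PV HC libraries. In sign, 9 of these 10 were higher and 1 lower (median log2 0.98), and all 10 astrocyte markers were higher (0.26). None of these markers was called, and their part was not tested.

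In SST cells conditioning left no member called. By edgeR, 0 of 9 passed beside 0.0411% of 14614 genes, 0 of 9 had an unadjusted p under 0.05 beside 5.57%, and DESeq2 called 0 of 9. The groups overlapped for all 9, beside 10.6% of all genes that did not. Folds ran from 0.846 for Dlx6os1 to 1.15 for Dlx5. Nr2f1 was at 28.2, 27.0 and 34.6 CPM in SST CFC and at 30.4, 36.7 and 31.3 CPM in SST HC libraries (log2 -0.13, 95% interval -0.52 to 0.26). Maf was at 25.9, 30.5 and 27.5 CPM in CFC and 22.7, 23.7 and 29.0 CPM in HC libraries (log2 0.16, interval -0.25 to 0.56). Lhx6 was at 317, 301 and 304 CPM in CFC and 311, 306 and 353 CPM in HC libraries (log2 -0.08, interval -0.26 to 0.11). In the same libraries Nr4a1 stood at 85.8 to 104 CPM after CFC and 13.8 to 23.5 CPM in the home cage, a change that passed (log2 2.43 ± 0.21 SE, edgeR adjusted p = 0.011). All 10 vascular markers were lower in sign after CFC (median log2 -2.77), with 1 called. Lower in sign were also 9 of 10 microglial (-0.66), 9 of 10 astrocyte (-0.60) and 10 of 10 oligodendrocyte markers (-0.28). All 5 pan-GABA markers were higher in sign (0.04). The part of these markers was not tested.

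**Figure D5:**
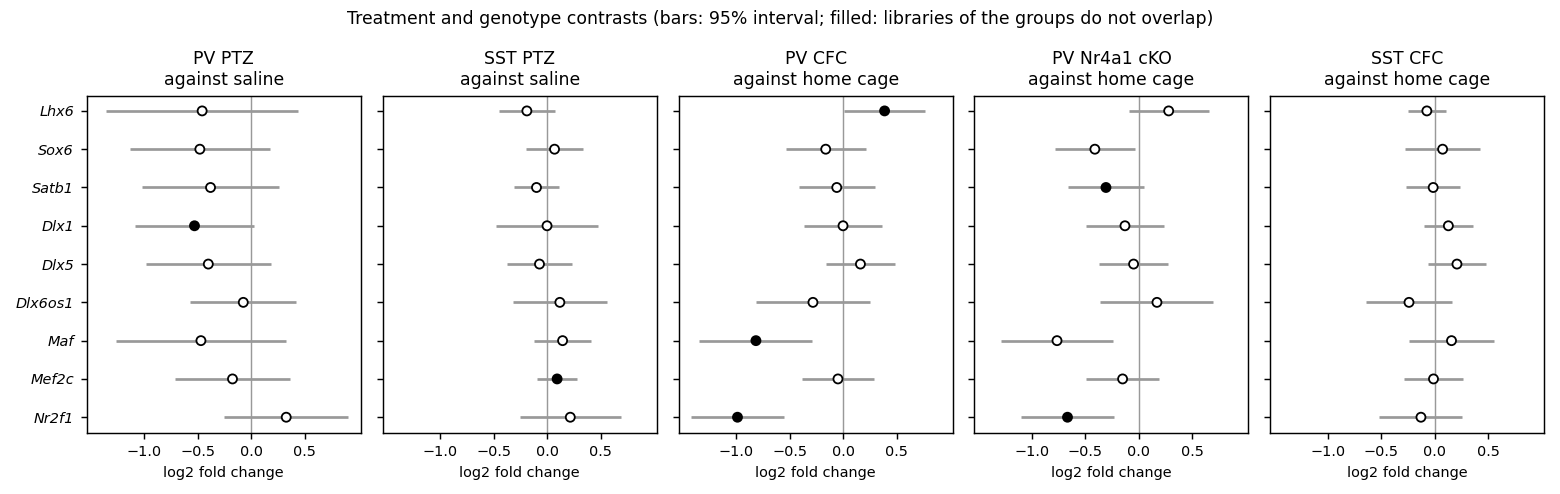
Log2 fold change (x axis) with its 95% interval for the 9 genes (rows) in the 5 treatment and genotype comparisons, each over its saline or home cage group; filled points mark groups whose libraries do not overlap. No point passed the edgeR threshold; Nr2f1 and Maf lie at -0.99 and -0.81 in PV CFC and at -0.13 and 0.16 in SST CFC.

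The difference between the SST and PV responses to conditioning was tested directly. For Maf it was log2 1.03 ± 0.32 and for Nr2f1 0.92 ± 0.26 (SE, edgeR adjusted p = 0.21 for both), each as SST minus PV response. None of the 9 passed among 16081 genes, beside 0% of all genes, 2 of 9 had an unadjusted p under 0.05 beside 15.2%. DESeq2 called 0 of the 6 genes to which it gave an adjusted p, and gave none to Maf, Nr2f1 and Dlx6os1. Without PV HC replicate 1 both passed (1.20 and 1.07, edgeR adjusted p = 0.0389 and 0.0265), among 881 genes. The other 7 genes had differences between log2 -0.40 for Lhx6 and 0.30 for Sox6.

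SST libraries of Nr4a1 cKO mice formed batch 5 with no control of their own, so genotype and batch cannot be told apart and no test was made against SST HC of batch 4. Lhx6 was at 317, 348 and 369 CPM in SST cKO and 311, 306 and 353 CPM in SST HC libraries. Mef2c was at 360, 428 and 441 CPM in SST cKO and 287, 282 and 386 CPM in SST HC libraries. Satb1 was at 356, 389 and 401 CPM in SST cKO and 278, 296 and 366 CPM in SST HC libraries. Nr2f1 (28.7 to 30.0 CPM in SST cKO, 30.4 to 36.7 CPM in SST HC) and Dlx5 (63.5 to 70.2 CPM in SST cKO, 71.2 to 92.3 CPM in SST HC) lay lower without overlap, and Sox6 (83.1 to 89.5 CPM in SST cKO, 56.6 to 82.3 CPM in SST HC) lay higher without overlap. These are 3 of 9, beside 33.5% of 13709 genes whose libraries did not overlap between these groups. The other genes overlapped, Dlx6os1 at 28.0 to 44.7 CPM in SST cKO and 24.7 to 28.6 CPM in SST HC libraries. Excitatory neuron markers summed to 410 to 465 CPM in SST cKO and 750 to 940 CPM in SST HC libraries. Vascular markers summed to 43.8 to 1190 CPM and 111 to 567 CPM, and pan-GABA markers to 4932 to 5770 CPM and 4619 to 5485 CPM. The part of these markers was not tested.

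The list of 29 other interneuron factors was read in the same treatment and genotype comparisons, where none reached the threshold by edgeR; calls by DESeq2 were not counted for this list. After PTZ, the median log2 fold change of the 29 tested in PV cells was 0.24 beside -0.01 over all genes, and St18 (1.00, adjusted p = 0.241) and Zfhx3 (0.78, 0.302) had the smallest p. In SST cells the median of 25 was 0.07 beside -0.01, and Tshz2 stood at log2 0.37 (adjusted p = 0.99). After CFC, the median of 28 in PV cells was 0.14 beside 0.02, with Prox1, a homeodomain factor of other interneurons, at log2 1.77 (adjusted p = 0.186) and Mef2a at 0.47 (0.204). In SST cells the median was 0.06 beside 0.00, with Nfib at -0.73 (adjusted p = 0.928). In PV cKO libraries the median was 0.06 beside 0.04 over all genes, and Prox1 (log2 2.36, adjusted p = 0.116) and Nr2f2 (1.72, 0.216) had the smallest p. For the difference of SST minus PV responses, the smallest p were those of Npas1 (log2 -1.73) and Pbx3 (-0.84) for PTZ (adjusted p = 0.82 for both), and of Dlx6 (0.74, adjusted p = 0.33) and Npas3 (0.68, 0.382) for CFC.

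Within groups, 8 of the 9 genes tended to deviate together. After each library was centred on its group, the Pearson correlation of log2(CPM + 1) between members had a median of 0.651 over 36 pairs and 34 libraries, from -0.402 for Dlx1 with Nr2f1 to 0.922 for Lhx6 with Satb1. All 8 pairs with Nr2f1 were negative over the 34 libraries. Without batch 1, which holds PV PTZ replicate 2, the median over 27 libraries was 0.439 and the range -0.456 to 0.881, and Nr2f1 with Maf was then positive at 0.102, with Satb1 and Dlx6os1 at -0.08 and -0.095. Libraries of a batch share depth and preparation, so these values describe the libraries only. The median over pairs of other genes was not taken, so the correlation is not shown to be particular to these factors.

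The genes most alike in pattern were sought by the same measure among 8006 genes with a mean of at least 5 CPM in every table. Lhx6 was like Rbms3 (r = 0.929). Satb1 was most like Lhx6 (0.922) and Mef2c (0.918), and Mef2c most like Satb1 and Tcf4 (0.908). Sox6 was most like Crkl (0.878) and Lhx6 (0.871), Maf like Lztfl1 (0.86) and Vwc2 (0.835), and Dlx5 like Fbxo22 (0.901) and Ywhab (0.889). Dlx1 was most like Uba3 (0.853) and Atp6v1a (0.825), and Dlx6os1 like Azi2 (0.788) and Wdr37 (0.779). Nr2f1 was most like Rab24 (0.759) and Rps4x (0.753), and its nearest values were the lowest of the 9.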

How the data were processed

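RNA was sequenced from RiboTag pulldowns in 34 libraries. Per the submitters' processing notes, cutadapt 1.18, STAR 2.5.2a, HTSeq 0.11.0 and DESeq2 were used, with builds mm10 and GRCm39 named without a role. The deposited batch 1 values are expected counts listed by symbol (11.3% not whole), which were rounded here. For batches 2 to 5 the authors deposited raw whole-number counts per gene, and the batch 2 table lists 11808 genes, with low genes left out. Nothing in the labels ties libraries to separate animals, and p-values therefore cover the spread among these libraries only, part of which may be technical.

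Each table was fitted as a whole with edgeR 4.0.16 in R 4.3.3 (robust quasi-likelihood F test, two-sided, TMM scaling, filterByExpr, Benjamini-Hochberg threshold 0.05 over all genes of the table). Differences of responses were contrasts of contrasts over genes listed in both tables. Standard errors are the absolute log2 fold change over the square root of F, and intervals are 95%. The fit was also run on simulated counts in which all genes had the same spread, unlike these libraries, as a check of the procedure only. Alternatives were RLE scaling, no filter, DESeq2 1.42.0, only the groups compared, a replicate block, a sex term and each library left out. No pair of replicates among 37 was identical (lowest chi-square per degree of freedom 5.89). Every column of per-sample values was used.

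The members and all lists were chosen with earlier results of these data known. The named genes are all 9 members, of a list of 29 other factors those called or, where none was, the 2 with the smallest p, Pvalb, Sst and Nr4a1 as checks, and for each member the 2 genes most like it; some genes that this rule names are not reported here. Markers at 0 that the text names, and Nr4a1 outside cKO mice, were picked after their values were seen.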

Additional observations from a re-analysis of the deposited data

Results flagged for a closer look

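Among 18 sets of 4 libraries, 1 per gene and group, 2 held a library whose gap to its nearest neighbour was large against the range of the group. Chance flags about 1 in 20 such sets. Dlx1 was at 25.3 CPM in PV PTZ replicate 2 of batch 1, against 47.2 to 50.2 CPM in the other PTZ libraries, and the gap was 0.881 of the range. Dlx6os1 was at 33.96 CPM in SST saline replicate 4 of batch 2, against 24.2 to 25.4 CPM in the other SST saline libraries, and the gap was 0.876 of the range.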

How the results depend on the processing

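Of 945 alternative log2 values of members, 894 kept their direction and side of the threshold (3 of them, from DESeq2 for the difference of CFC responses, have a direction but no adjusted p), 15 passed only under the alternative, and 36 changed sign. No call among the 4 of SST saline against PV saline was lost. The counts of members called that moved were those of PV CFC (2 with no filter and 2 with DESeq2) and of PV cKO (1 with no filter and 2 with DESeq2). Counts over all genes moved more: DESeq2 called 215 genes for PV PTZ, 38 for SST PTZ, 745 for PV CFC, 669 for PV cKO, 102 for SST CFC, 1 for the difference of PTZ responses and 327 for that of CFC responses. With no filter the counts were 1032 for PV CFC, 1072 for PV cKO, 11 for SST CFC and 708 for the difference of CFC responses. With only the groups compared they were 38 for SST PTZ, 2 for PV CFC and 10 for PV cKO, and with a sex term 0 for PV PTZ and 10 for SST CFC. Of the genes called in PV cKO, 39.9% were higher with DESeq2 and 56.0% with no filter, against 71.4% as reported, and in SST CFC 14.7% with DESeq2 against 83.3% as reported. The cause was not tested.

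Deviations of libraries with the same replicate number correlated at -0.237 to 0.241. They were positive for every pair only in SST saline against PV saline (0.051 and 0.109). The labels do not say that the numbers pair the samples, and values from so few libraries cannot settle it. With the replicate number as a block, 0 members were called in PV PTZ, SST PTZ, PV CFC, PV cKO and SST CFC and 4 in SST saline against PV saline; over all genes 2 were called for PV PTZ, 8 for SST PTZ, 4947 for SST saline against PV saline, 2 for PV CFC, 27 for PV cKO and 2 for SST CFC.

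With each library left out in turn, members called ran from 4 to 6 for SST saline against PV saline and from 0 to 2 for PV CFC, PV cKO and the difference of CFC responses. All genes called ran from 0 to 14 for PV PTZ, 13 to 17 for SST PTZ, 5476 to 6982 for SST saline against PV saline, 0 to 1481 for PV CFC, 7 to 1224 for PV cKO, 1 to 37 for SST CFC, 0 to 1 for the difference of PTZ responses and 0 to 881 for that of CFC responses.

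No value that changed sign was called. Under settings of the fit they were Dlx6os1 in PV PTZ with the replicate block (0.016), Mef2c in SST CFC with the replicate block (0.0016), Dlx1 in PV CFC with no filter (0.029), and Dlx1 in SST PTZ with RLE scaling (0.0056), DESeq2 (0.0057) and only the groups compared (0.0053). With a library left out, log2 values crossed 0 for Dlx6os1 in PV PTZ (-0.22 to 0.055), for Dlx1 (-0.064 to 0.11) and Dlx6os1 (-0.057 to 0.28) in SST PTZ, and for Dlx1 (-0.081 to 1.13), Maf (-0.14 to 0.22) and Nr2f1 (-0.13 to 0.42) in SST saline against PV saline. They did so for Satb1 (-0.11 to 0.011), Dlx1 (-0.049 to 0.064) and Mef2c (-0.11 to 0.0062) in PV CFC, for Dlx1 (-0.27 to 0.049), Dlx6os1 (-0.0082 to 0.37) and Mef2c (-0.28 to 0.017) in PV cKO, and for Sox6 (-0.068 to 0.19), Satb1 (-0.094 to 0.11) and Mef2c (-0.092 to 0.15) in SST CFC. For the difference of PTZ responses they were Lhx6 (-0.032 to 0.52), Dlx6os1 (-0.024 to 0.31) and Nr2f1 (-0.30 to 0.016), and for that of CFC responses Dlx5 (-0.0085 to 0.21) and Dlx6os1 (-0.045 to 0.26).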
